A study of Mus musculus with 15 samples.

Results

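The libraries compared here came from the tibialis anterior, a fast-twitch muscle at the front of the lower hind leg, of male mice of the strain C57BL/6 (C57BL/6NCrlOri) aged 6 to 8 weeks. Mice of the anti-PD-L1 group (n = 3 libraries) carried a tumour grown from KrasIKKaL cells placed in the airway. They were injected in the abdomen 3 times a week with 200 µg/kg of clone 10F.9G2, an antibody that blocks the checkpoint ligand PD-L1. Control mice (n = 5) had no tumour, and the labels name no antibody for them. Tumour and antibody therefore changed together between these groups and cannot be told apart. Tumour-bearing mice given an isotype IgG (n = 4) are used below as a second reference, and 3 tumour-bearing anti-CD8a libraries, from mice given 200 µg of that antibody, entered the fit only. Together, 8 of the 15 libraries of the series make up the comparison, which was chosen by group label and read across all genes. Whether every library is a mouse of its own is not stated, so the p-values measure the spread between these libraries, which may be technical.

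Cancer cachexia is the loss of muscle mass in a host with a tumour. In wasting muscle, FoxO and glucocorticoid receptor signalling are known to raise the muscle ubiquitin ligases Trim63 (MuRF1) and Fbxo32 (atrogin-1), which mark myofibrillar and other proteins for the proteasome, while autophagy delivers organelles to lysosomes, where cathepsins such as Ctsl digest them. PD-L1, encoded by Cd274, is itself an interferon-induced gene, and blocking it releases T cells from inhibition.

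Totals were 17664347 to 19786207 expected counts per control library and 17825801 to 22459370 per anti-PD-L1 library. All 8 libraries read as skeletal muscle: the actin gene Acta1 was at 11184 to 24590 TPM (transcripts-per-million, a per-length scale) and muscle creatine kinase Ckm at 11835 to 20141 TPM. Lung and basal epithelial markers were at or near 0, with Nkx2-1 and Krt5 without a count in all 8. Mitochondrially encoded genes took 14.4%, 11.1% and 12.9% of the anti-PD-L1 libraries against 17.6% to 23% of the control libraries, a difference of -7.67 percentage points (two-sided exact permutation p = 0.0179, the smallest that 3 against 5 allows). The share of the fast myosin Myh4 among the TPM of 4 adult myosin genes was 61.8%, 78.9% and 90.8% in anti-PD-L1 replicates 1, 2 and 3 and 80.2% to 90.5% in control, so replicate 1, and by a small margin replicate 2, lay below every control library. On the first principal component, which held 56.1% of the variance, control libraries lay between -59.5 and -43.6, and anti-PD-L1 replicates 1, 2 and 3 at 22.9, 60.5 and 4.98. IgG libraries lay between 38.0 and 92.3.

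Of 14372 genes tested, 4988 (34.7%) were called at an adjusted p under 0.05, where adjusted p is that of edgeR's quasi-likelihood test after Benjamini-Hochberg adjustment over all genes. The 2989 higher genes (20.8%) had a median fold of 1.77, and the 1999 lower genes (13.9%) a median fold of 1.93. At 2-fold or more, 1090 genes were called higher (7.58%) and 932 lower (6.48%). The median log2 fold change over all tested genes was 0.05, and every list below is to be read against these shares. With upper-quartile scaling the median moved to -0.09 and the split of calls turned from 2989 higher and 1999 lower to 2134 higher and 2661 lower, so small shifts in 1 direction depend on the scaling. Leaving out anti-PD-L1 replicate 2 brought the calls to 3013. The 43 gene lists held 909 genes, of which 828 were tested, and each list is given by its counts of calls.

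**Figure D1:**
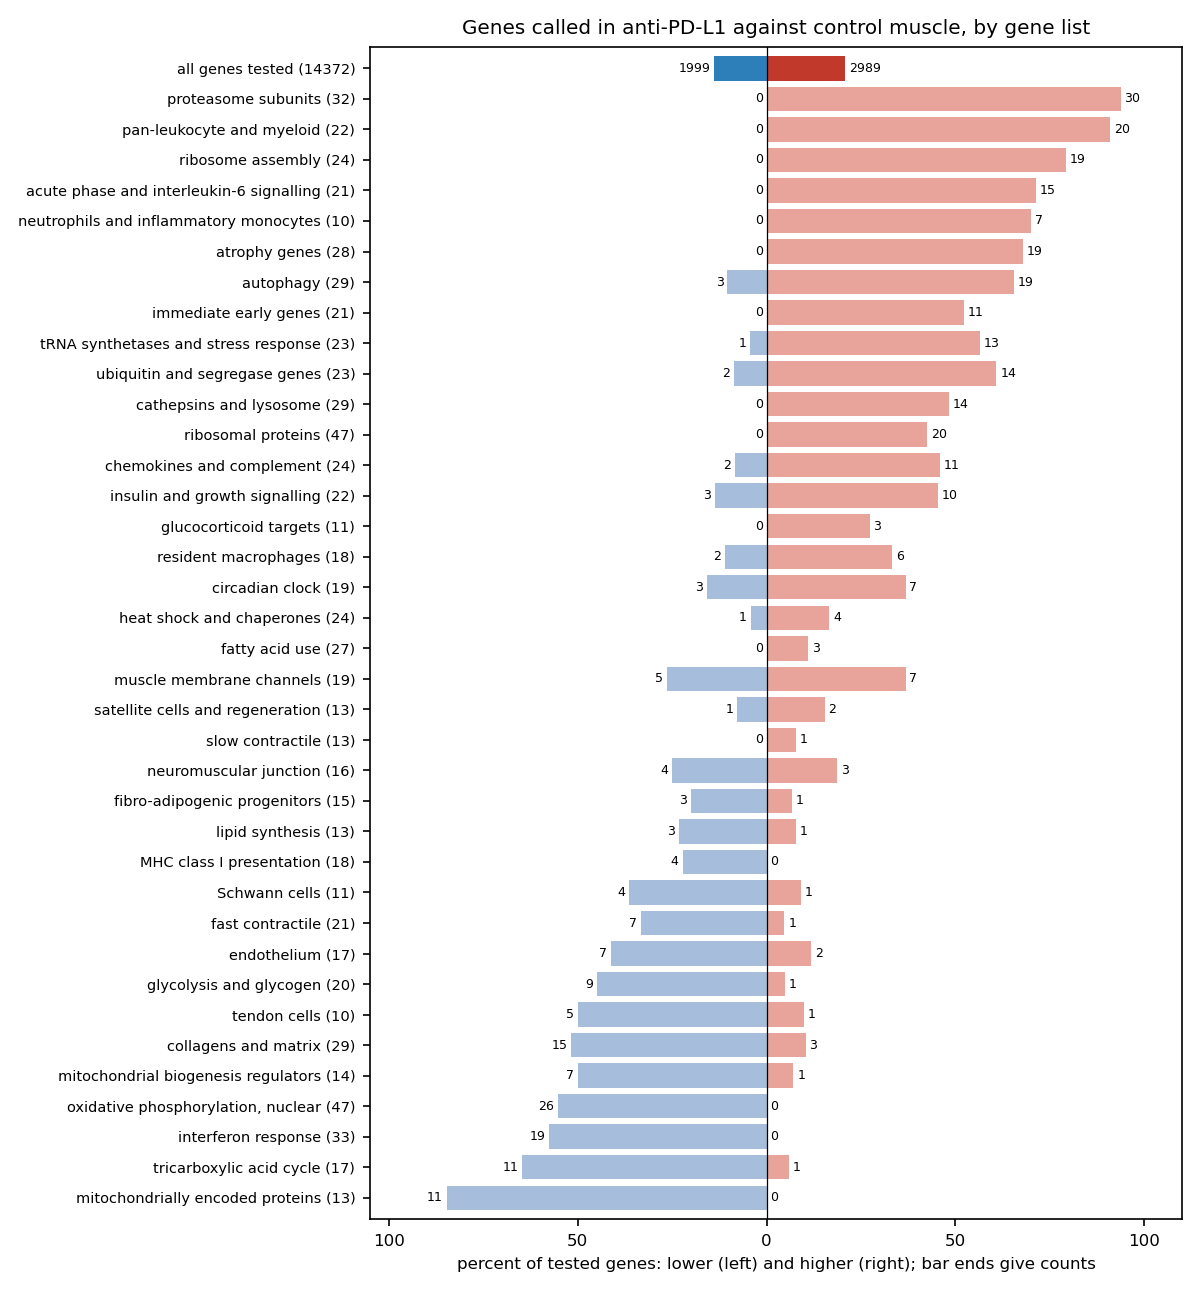
Percent of the tested genes of each gene list (37 lists with at least 10 tested genes, their number in brackets) called higher (right) or lower (left) in anti-PD-L1 against control muscle by edgeR's quasi-likelihood test, with the counts at the bar ends. The top bar gives all 14372 genes, of which 2989 were called higher and 1999 lower; proteasome subunits stand at 30 higher of 32 and interferon response genes at 19 lower of 33.

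Genes of protein breakdown were higher in the anti-PD-L1 libraries. Of 28 atrophy genes, 19 were called higher and 0 lower (2 lower without anti-PD-L1 replicate 3), with a median log2 fold change of 1.63 (0.05 over all genes). Fbxo32 measured 2172, 4236 and 2780 CPM (counts-per-million, normalised by the trimmed mean of M-values) in anti-PD-L1 replicates 1, 2 and 3, against 375 to 602 in control, with a median of 390. The 3 libraries lay far above all 5 controls, a log2 fold change of 2.72 ± 0.26 (standard error; adjusted p = 2e-05). Trim63 was at 2152, 6876 and 2607 CPM against 282.8 to 493 in 4 controls and 1258 in control replicate 3. Its groups did not overlap either, although control replicate 3 stood well above the other controls, and its log2 fold change was 2.90 ± 0.46 (adjusted p = 0.00037). Without anti-PD-L1 replicate 2 it was 2.20, and without control replicate 3 it was 3.52.

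Regulators upstream of these ligases were called only in part, and the glucocorticoid receptor gene Nr3c1 was not called. Foxo3, a transcription factor that drives atrophy genes, was higher by 1.51 ± 0.28 on the log2 scale (adjusted p = 0.0009), while Foxo1 at 1.35 ± 0.52 missed the threshold (adjusted p = 0.054). Control replicate 3, at 114 CPM, and control replicate 2 both lay above the lowest of the anti-PD-L1 values of 116, 221 and 55.4 for Foxo1. Several genes known to respond to glucocorticoids or to energy stress had larger differences. Ddit4, an inhibitor of mTORC1, measured 430, 606 and 462 CPM against 15.87 to 115 in control. Sesn1, a sestrin that restrains mTORC1, was at 320, 560 and 90.2 against 16.5 to 27.7, and Depp1, a FoxO target linked to autophagy, at 248.97, 279 and 64.3 against 10.1 to 20.8. For both, replicate 3 was the lowest of the 3 libraries and still above every control. The transcription factor gene Cebpd was higher by 3.21 ± 0.47, and the cell cycle inhibitor gene Cdkn1a by 2.86 ± 0.52, on the log2 scale. Without anti-PD-L1 replicate 2 the log2 fold changes of Sesn1 and Cebpd were 3.27 and 2.53. Metallothioneins Mt1 and Mt2, which bind metals and are near copies, need care: Mt1 was at 567, 483 and 181 CPM against 14.7 to 34.2 in 4 controls and 262.6 in control replicate 3. Its call (2.57 ± 0.78) was lost without anti-PD-L1 replicate 1 or 2, with adjusted p of 0.06 and 0.057, and its log2 fold change without control replicate 3 was 4.32.

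The promoter of Trim63 is shown because glucocorticoid receptor and FoxO matches stand side by side in it. It comes from RefSeq (GRCm38.p6, chr4:134314870-134315119, plus strand, the 250 bases before the start, written 5′ to 3′), with matches on either strand to the glucocorticoid response element (GNACA, any 3 bases, TGTNC) and to the FoxO core (GTAAACA) in capitals.

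Trim63: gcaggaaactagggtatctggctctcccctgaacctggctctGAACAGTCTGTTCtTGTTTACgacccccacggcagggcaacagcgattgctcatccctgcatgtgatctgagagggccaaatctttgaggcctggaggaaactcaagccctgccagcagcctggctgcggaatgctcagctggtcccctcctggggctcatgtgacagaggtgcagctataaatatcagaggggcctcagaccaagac

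The first match covers positions -208 to -196 from the start and the second, in reverse orientation, -194 to -188, with no overlap. Of 32851 mouse promoter windows of this length, 0.387% held the first motif and 3.17% the second. In the atrophy list, 24 of 28 genes had a promoter in the table, with 30 windows, of which 2 held the glucocorticoid motif and 2 the FoxO motif. A match is a description of the letters, and binding was not measured.

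Proteasome subunits rose nearly as a block. Of 32 subunit genes, 30 were called higher and 0 lower, with a median log2 fold change of 0.97, and 29 or 30 were called when any 1 library was left out. The lid subunit Psmd11 measured 188, 336 and 230 CPM against 73.6 to 92.9 in control, a log2 fold change of 1.61 ± 0.17 (adjusted p = 3e-05). The ubiquitin receptor subunit Psmd4 followed with 266, 395 and 270 against 92.0 to 115, and the core subunit Psma7 with 189, 193 and 172 against 56.5 to 75.5. All 3 subunits had groups that lay apart. The catalytic subunits Psmb5 (0.35 ± 0.18, adjusted p = 0.13) and Psmb7 (0.38 ± 0.17, adjusted p = 0.089) were the 2 that did not pass. The subunits of the interferon-induced immunoproteasome stood on the other side: Psmb9 (-0.79 ± 0.28), Psmb10 (-0.73 ± 0.20) and the activator Psme1 (-0.83 ± 0.17) were called lower, although the calls of Psmb9 and Psmb10 were lost without anti-PD-L1 replicate 2 (adjusted p = 0.19 and 0.072), and that of Psmb9 also without anti-PD-L1 replicate 3 or control replicate 2, 4 or 5. Psmb8 (-0.33 ± 0.28) was not called.

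Among 23 ubiquitin and segregase genes, 14 were called higher and 2 lower, the conjugating enzymes Ube2n (-0.49) and Ube2r2 (-0.38). Nploc4, a cofactor of the segregase Vcp that pulls ubiquitinated proteins out of complexes, was at 245.2, 344 and 221 CPM against 56.9 to 76.4 (2.04 ± 0.21, adjusted p = 2.5e-05), and Vcp itself was higher by 0.70 ± 0.15. The polyubiquitin gene Ubb rose by 1.44 ± 0.21. Without anti-PD-L1 replicate 2 the counts became 8 higher and 0 lower, and the lower count was 1 without anti-PD-L1 replicate 1 or any 1 control library.

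The lysosomal list was split. Of 29 cathepsin and lysosome genes, 14 were called higher and 0 lower (median 0.38), or 9 with upper-quartile scaling. Ctsl, the cathepsin named in the title of the study, was at 298, 394 and 151 CPM against 80.4, 81.3, 71.8, 77.5 and 89.9 in control. All 3 libraries exceeded the controls, replicate 3 the least, and the log2 fold change was 1.81 ± 0.25 (adjusted p = 0.00013). In IgG against control, which uses the same control libraries, it was 2.25, and the difference of anti-PD-L1 from IgG was -0.44 (adjusted p = 0.3). Ctsd, the aspartic protease, rose by 0.95 ± 0.16, and the proton pump subunit Atp6v1h by 1.84 ± 0.25. Ctss, a cathepsin of antigen-presenting cells, was at 69.8, 21.1 and 19.7 CPM against 5.06 to 7.89 (2.51 ± 0.43, adjusted p = 0.00062, and 1.66 without anti-PD-L1 replicate 1). Unlike Ctsl, Ctss was called in anti-PD-L1 against IgG, at 2.38 (adjusted p = 0.013), and its IgG libraries at 4.29 to 9.19 CPM were near control. Ctsb (0.32 ± 0.14, adjusted p = 0.085) and Ctsk (-0.02 ± 0.25) were not called.

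In the autophagy list of 29, 19 genes were called higher and 3 lower, Ulk2 (-0.61), Fundc1 (-0.48) and Tecpr2 (-0.81). Those counts became 12 and 0 without anti-PD-L1 replicate 2, and the lower count was 1 without replicate 3. The mitophagy receptor Bnip3 measured 766, 1461 and 651 CPM against 209 to 285.7. The autophagosome proteins Map1lc3b and Gabarapl1 rose by 1.48 ± 0.19 and 1.90 ± 0.33, and the cargo receptor Sqstm1 by 1.41 ± 0.19. Replicate 2 was the highest of the 3 libraries for all 4 of these genes, and without it the value of Gabarapl1 was 1.31. No control library reached the anti-PD-L1 range of any of the 4.

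**Figure D2:**
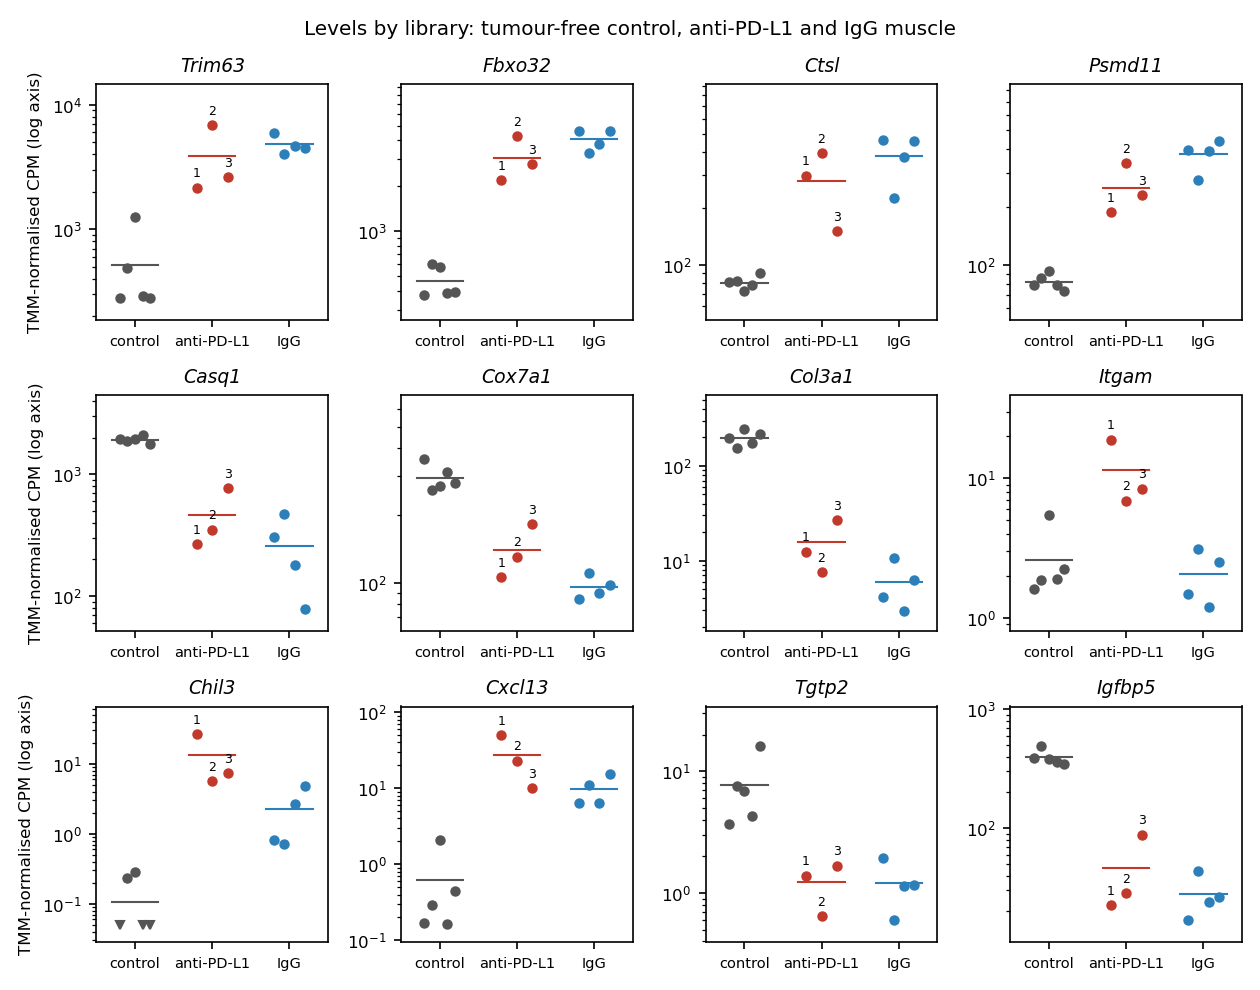
Level of 12 genes in each control, anti-PD-L1 and IgG library (TMM-normalised CPM, log axis; horizontal bars are group means; numbers mark the anti-PD-L1 replicates; triangles at 0.05 stand for values of 0). The 3 anti-PD-L1 libraries lie outside the control range in all 12 panels, and for Itgam, but not for Fbxo32 or Ctsl, they also lie above all IgG libraries. The 12 genes are a selection: of all 14372 genes, 21% lay wholly above the control range and 16.8% wholly below.

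Of 22 insulin and growth signalling genes, 10 were called higher, 3 lower and 9 were not called. Among the higher were Irs2, which links the insulin receptor to PI3 kinase (178, 197 and 204 CPM against 22.7 to 39.3; 2.66 ± 0.47), Pik3r1, its regulatory subunit (132, 193 and 156 against 25.0 to 44.0; 2.35 ± 0.26), and Akt1 (1.5 ± 0.24). Groups did not overlap for any of them. Eif4ebp1, the repressor of cap-dependent translation that mTORC1 switches off, was at 410, 436 and 274.8 CPM against 38.0 to 64.1, with groups far apart (2.95 ± 0.24, adjusted p = 1.2e-05). Igfbp5, a secreted binder of insulin-like growth factors, went the other way, with 22.6, 28.5 and 88.3 CPM against 345 to 494 (-3.08 ± 0.41, adjusted p = 0.00012, and -3.94 without anti-PD-L1 replicate 3). Smad3, which transmits myostatin and TGF-beta signals, fell by 2.11 on the log2 scale, and Inhba, an activin subunit, by 1.23. Mstn, the growth inhibitor myostatin, was at 107, 397 and 149 CPM against 70.7 to 89.8 (1.36 ± 0.37, adjusted p = 0.011), but 0.60 without replicate 2 (adjusted p = 0.2). Igf1, at 19.7, 14.2 and 22.6 CPM against 24.3 to 37.6, did not pass (adjusted p = 0.099).

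Nucleolar genes that build ribosomes were called higher in 19 of 24 cases and lower in 0 (median 0.74). Gnl3 (nucleostemin) was at 44.1, 101 and 55.5 CPM against 20.7 to 22.7, Mybbp1a at 126, 155 and 138 against 47.9 to 72.9, and Myc, which drives ribosome production, at 11.2, 14.6 and 9.72 against 2.69 to 5.12. Ribosomal proteins themselves gave a weaker picture: 20 of 47 were called higher and 0 lower (median 0.46), led by Rpl3 (221, 148 and 96.3 against 54.8 to 72.0; 1.27 ± 0.21), the copy whose muscle-specific relative is Rpl3l. The count of 20 became 4 with upper-quartile scaling, 4 without anti-PD-L1 replicate 1, 8 without replicate 2, and 9 and 10 without control replicates 2 and 3. Of 23 tested tRNA synthetase and amino acid stress genes, 13 were called higher, among them Atf4 (252, 424 and 301 CPM against 147 to 184; 1.02 ± 0.17). Ddit3 (CHOP), which responds to endoplasmic reticulum stress, was the single lower call at -0.73 ± 0.24, which was lost without anti-PD-L1 replicate 1 or 2 or control replicate 1 or 5.

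Genes of mitochondrial energy supply were lower. Of 47 nuclear genes of oxidative phosphorylation, 26 were called lower and 0 higher, with a median log2 fold change of -0.41. The cytochrome oxidase subunit Cox7a1 measured 105, 130 and 183 CPM against 260 to 357 (-1.08 ± 0.20, adjusted p = 0.00089), and cytochrome c1 (Cyc1) 165, 132 and 169 against 285.8 to 367 (-1.03 ± 0.15). Neither gene had overlapping groups. Of 13 mitochondrially encoded proteins, 11 were called lower (median -0.79), or 6 without anti-PD-L1 replicate 2. For mt-Co1 the values were 29202, 28257 and 26960 CPM against 43169 to 70576. With all mitochondrially encoded genes taken out before scaling, 4956 genes were called in place of 4988. In the tricarboxylic acid cycle list, 11 of 17 were lower, including Idh3a (213, 220 and 274 against 433 to 505; -0.99 ± 0.17), and 1 was higher, Idh2 (1.13 ± 0.40), whose call was lost without anti-PD-L1 replicate 1 (adjusted p = 0.28) or 2, or any control but replicate 2. The 11 lower became 6 without replicate 1 and 7 without control replicate 2 or 3.

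Among regulators of mitochondrial content, 7 of 14 were called lower and 1 higher, the transcription factor Nrf1 (0.86 ± 0.18); 3 were lower without anti-PD-L1 replicate 2 and 4 without replicate 3 or control replicate 2. Perm1, a muscle co-regulator of oxidative genes, was at 76.1, 44.7 and 60.6 CPM against 170 to 308 (-1.93 ± 0.28, adjusted p = 0.00019), and the nuclear receptor Esrra fell by 1.06. Ppargc1a (PGC-1alpha), the coactivator that drives mitochondrial biogenesis, measured 26.9, 23 and 17.5 CPM against 35.9, 91.3, 301, 26.6 and 40.1. Control replicate 4 lay within the anti-PD-L1 range and control replicate 3 far above the rest. Its log2 fold change of -2.14 ± 0.66 became -1.11 without control replicate 3, and its call was lost without anti-PD-L1 replicate 2 or 3 (adjusted p = 0.069 and 0.063).

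Glycolytic genes were lower in 9 of 20 cases and higher in 1, the glycogen branching enzyme Gbe1 (0.93), with a median of -0.66. Pgam2, the muscle phosphoglycerate mutase, measured 303, 266 and 571 CPM against 1242 to 1726 (-1.90 ± 0.29, adjusted p = 0.00026). Pgm1, which feeds glycogen-derived glucose into glycolysis, was at 172, 257 and 553 against 987 to 1337. Replicate 3 was nearest to control for both, and the list's median was -1.26, -0.60 and -0.29 in replicates 1, 2 and 3. Without anti-PD-L1 replicate 1 or 2, the count of 9 became 3 and 4, and the calls of Eno3 and Ldha were lost. The log2 fold change of Pgm1 moved from -1.81 to -2.41 without replicate 3. Few genes of fatty acid use were called: 3 of 27, all higher, the acyl-CoA thioesterases Acot1 and Acot2, which are near copies, and the lipid droplet protein Plin5. None of the 3 was called without replicate 2, and the list's median of 0.12 became -0.03 with upper-quartile scaling. Pdk4, which turns muscle from glucose to fat, was at 829, 4184 and 835 CPM against 616 to 2033, a difference that did not pass (adjusted p = 0.3).

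Contractile genes changed in part. Of 21 fast contractile genes, 7 were called lower and 1 higher, the myosin kinase Mylk2 (1.04 ± 0.19). Casq1, the calcium store protein of the fast sarcoplasmic reticulum, was at 265.2, 352 and 768 CPM against 1776 to 2103 (-2.07 ± 0.46, adjusted p = 0.0032). Acta1 measured 11794, 16072 and 19595 against 21596 to 33426 (-0.69 ± 0.19), and the calcium buffer Pvalb 1236, 4112 and 6258 against 7042 to 10098 (-1.13 ± 0.38). In all 3 genes replicate 1 was farthest below control and replicate 3 nearest. The count of 7 became 2 without anti-PD-L1 replicate 1, 3 without replicate 2, and 4 and 3 without control replicates 1 and 4, and the calls of Acta1 and Pvalb were lost without replicate 1 (adjusted p = 0.062 and 0.075). Pvalb was also not called without replicate 2 or control replicate 1 or 4. Myosin Myh4 (9906, 20336 and 22618 against 16112 to 27618; adjusted p = 0.32) and the troponin Tnnt3 (0.00 ± 0.18) were not called. Slow contractile genes varied between libraries: 1 of 13, Sln, was called, while the list's median was 1.74, 0.35 and -1.26 in replicates 1, 2 and 3. Slow myosin Myh7 ran from 907 CPM in replicate 1 to 44.9 in replicate 3, and from 32.7 to 1016 in control. Sln, the sarcolipin inhibitor of the calcium pump, measured 40.9, 8.87 and 3.30 CPM against 1.07 to 4.42, and its call was lost without replicate 1 (adjusted p = 0.18).

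Among 19 membrane channel genes, 7 were called higher and 5 lower, but the higher count was 1 without anti-PD-L1 replicate 2, 4 without control replicate 1 and 2 with upper-quartile scaling. The potassium channel subunit Kcng4 was the member with the largest fall, with 0.763, 0.728 and 1.72 CPM against 31.7 to 44.1 (-5.05 ± 0.43, adjusted p = 1.3e-05). At the neuromuscular junction, 3 of 16 tested genes were called higher and 4 lower, or 2 lower without anti-PD-L1 replicate 2. Ache, the acetylcholinesterase of the synapse, was at 6.24, 5.91 and 6.86 CPM against 16.0 to 20.9, and Runx1, which rises on denervation, at 10.8, 12.1 and 6.20 against 1.35 to 4.08. Receptor subunits Chrna1 (-0.16), Chrnd (-0.28) and Chrne (-0.65) were not called, and Chrng, the fetal subunit, had 0 counts in the 3 anti-PD-L1 libraries and 2 to 5 in each control library. Of 13 tested satellite cell genes, Cdh15 and Itga7 were called higher and Megf10 lower, and Pax7, the stem cell factor, was not called at -0.52 ± 0.42. The call of Itga7 was lost without anti-PD-L1 replicate 1, and 4 of the 13 were called lower without replicate 3. Myog, the differentiation factor that also rises in denervated muscle, measured 11.2, 5.01 and 7.74 CPM against 2.11 to 3.08 (1.68 ± 0.32, adjusted p = 0.0012).

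Leukocyte transcripts were higher in the anti-PD-L1 libraries than in both control and IgG. Of 22 pan-leukocyte and myeloid genes, 20 were called higher against control and 0 lower, with a median log2 fold change of 1.57. The integrin subunit Itgam (CD11b) measured 19.0, 6.94 and 8.44 CPM against 1.63, 1.89, 5.46, 1.89 and 2.23 in control and 1.20 to 3.13 in IgG. Lyz2, the lysozyme of macrophages, was at 387, 94.1 and 150 CPM against 41.8 to 86.8, and Ptprc (CD45), carried by all leukocytes, at 7.53, 4.93 and 5.01 against 1.73 to 3.12. In each case replicate 1 was the highest, and the count of 20 became 10 without it. Without replicate 1 the adjusted p was 0.13 for Lyz2 and 0.082 for Ptprc. In bulk muscle, more cells of a type and more RNA per cell cannot be told apart. The control group is shared with the comparison of IgG against control, in which 2 of the 22 were called higher and 9 lower (30.2% and 28.4% of all genes). Set directly against IgG, 18 of the 22 were called higher and 0 lower, where 3.96% of all genes were called higher and 1.54% lower. Itgam differed from IgG by 2.45 on the log2 scale (adjusted p = 0.02) and Lyz2 by 2.81 (adjusted p = 0.0087). The summed level of the list was 672, 222 and 304 CPM in anti-PD-L1 replicates 1 to 3, 93.0 to 159 in control and 73.7 to 121 in IgG.

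Tissue-resident macrophage genes behaved differently. Of 18 tested, 6 were called higher and 2 lower against control. The complement subunit C1qa, made by macrophages, was at 39.2, 19.3 and 24.8 CPM against 9.25 to 14.9 (1.13 ± 0.24, adjusted p = 0.0025), and the hyaluronan receptor Lyve1 at 32.5, 37.8 and 17.3 against 8.49 to 15.8 (1.43 ± 0.27). Cbr2 (12.6, 6.09 and 19.1 against 27.7 to 37.3) and Maf (-0.98 ± 0.37) were the 2 lower, and the call of Maf was lost when any library but anti-PD-L1 replicate 3 was left out. Folr2, another marker of this population, measured 6.96, 1.33 and 2.95 CPM against 2.0 to 5.80 and was not called (adjusted p = 0.89). Against IgG, in which 17 of the 18 had been called lower than control, 16 were called higher with anti-PD-L1, among them Folr2 at 3.80 (adjusted p = 0.0048), with 0.122 to 0.602 CPM in IgG. Without anti-PD-L1 replicate 1, 2 of the 18 were called higher than control, and the list's median in replicate 2 was -0.12, against 0.99 and 0.92 in replicates 1 and 3.

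The list of neutrophil and inflammatory monocyte genes held some of the largest folds of all, but not in every member. Only 10 of 18 passed the filter on low counts, which a gene can pass through the group where it is high, and 7 of these were called higher and 0 lower. Log2 fold changes of the 10 ran from -0.77 to 6.98. S100a8, a calcium-binding protein of neutrophils, measured 17.2, 27.1 and 5.67 CPM against 0.168, 0.236, 1.67, 0.108 and 0.0892 (5.22 ± 0.69, adjusted p = 9.8e-05). Its partner S100a9 was at 10.4, 19.5 and 4.53 against 0 to 1.61 (4.69 ± 0.73, and 4.08 without anti-PD-L1 replicate 2). Chil3, a chitinase-like protein of alternatively activated macrophages and immature neutrophils, was at 26.7, 5.66 and 7.34 CPM against 0 to 0.288, with 859 counts in the 3 anti-PD-L1 libraries and 9 in the 5 controls. It had the largest log2 fold change among the higher genes named, 6.98 ± 0.90 (5.96 without anti-PD-L1 replicate 1 and 7.79 without control replicate 3). All 3 genes were above every control library, which the naming rule for the largest changes required. Control replicate 3 held most of the control counts of S100a8 and S100a9, and without it their log2 fold changes were 6.76 and 6.11. Chil3, Ngp and S100a8 were also higher than in IgG, by 2.56 (adjusted p = 0.046), 2.84 (0.04) and 2.68 (0.029). Ngp, a neutrophil granule gene, was at 1.43, 6.21 and 1.01 CPM. Below the filter, Mpo, Elane, Camp and Ltf had 29, 9, 65 and 25 counts in replicate 2 and 0 to 15 in replicates 1 and 3. Cxcr2 and Mmp8, also below it, were not concentrated in replicate 2. Cxcr2 had 14, 11 and 8 counts against 0 to 5 in control, and Mmp8 16, 13 and 7 against 0 to 9. Ly6g had 1, 0 and 0 counts and none in control, and the monocyte gene Ly6c2 4, 19 and 3 against 2 to 7.

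**Figure D3:**
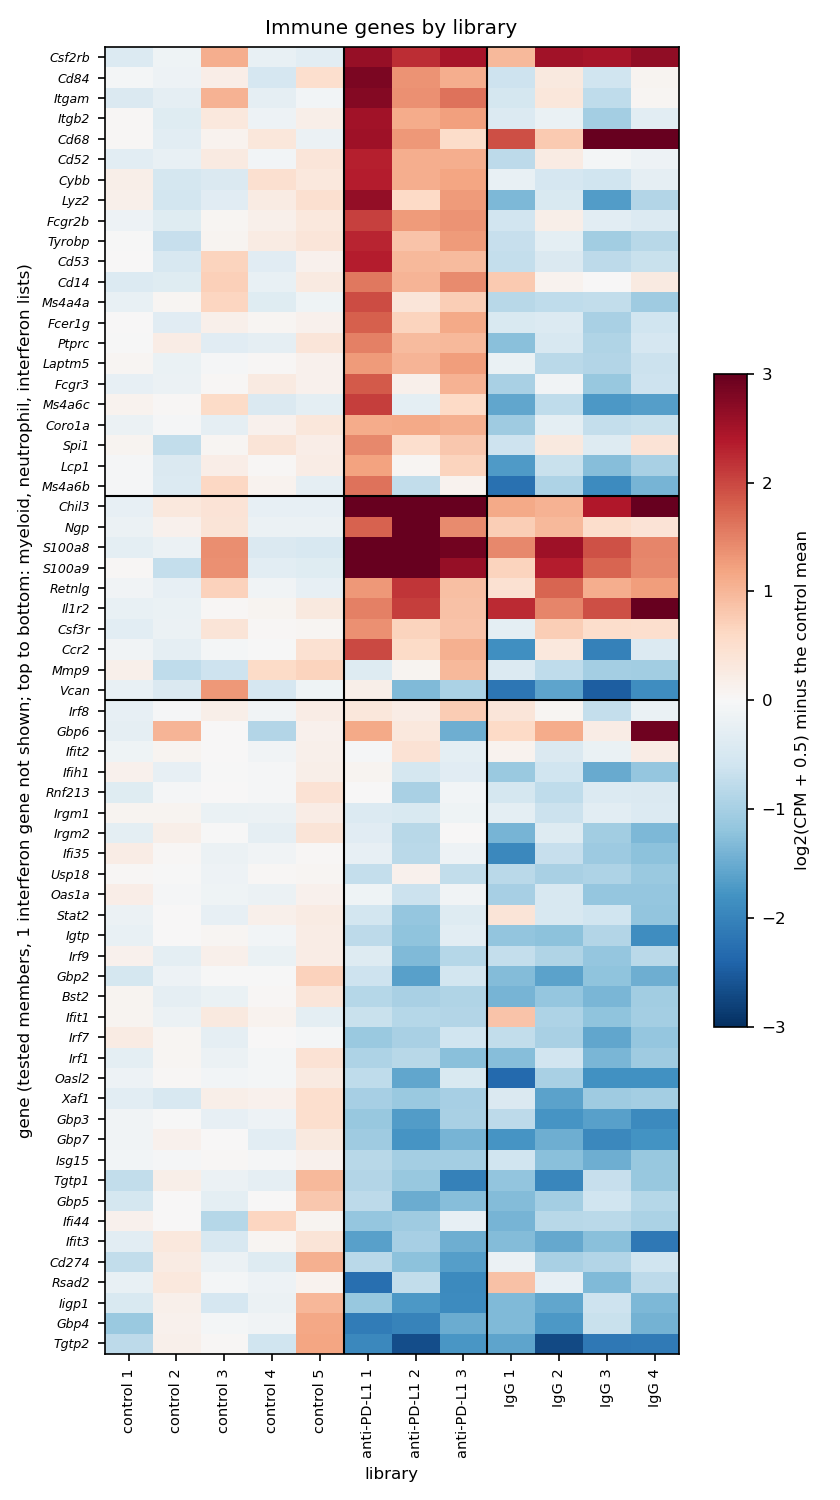
log2(CPM + 0.5) minus the mean of the 5 control libraries for tested members of the myeloid, neutrophil and interferon lists (1 interferon gene is not shown), by library (colour scale capped at 3 in each direction). Myeloid genes are above control in the anti-PD-L1 libraries, most in replicate 1, and mostly below it in IgG, while 19 of 33 interferon response genes were called lower with anti-PD-L1 and 26 of 33 with IgG.

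Lymphocyte transcripts were few, and for part of the genes below the filter they sat mainly in 1 library. Of 27 T and NK cell genes, 3 were tested: Cd3e was called lower (0, 0.343 and 0 CPM against 0.575 to 1.40), Cd2 higher (1.00, 0.643 and 1.19 against 0.112 to 0.490) and Cd28 was not called. The other CD3 chains, below the filter, did not share the fall of Cd3e. Cd3d had 1, 8 and 0 counts and Cd3g 0, 12 and 1, against 0 to 1 in control, where Cd3e had 10 to 25. The call of Cd2 was lost without anti-PD-L1 replicate 1 or 3 or any of control replicates 1 to 4 (adjusted p = 0.052 to 0.097). Below the filter, anti-PD-L1 replicate 2 held 29 counts of Cd4, 22 of Trbc2, 18 of Lck and 14 of Ctla4, while replicates 1 and 3 held 0 to 2 of each and control libraries 0 to 5. Cd8a had 0, 3 and 0 counts in the anti-PD-L1 libraries and 0 to 4 in control, at or just above the floor of 3 counts in both. Genes of cytotoxic and NK cells were not raised in replicate 2. Gzma, Gzmb, Prf1, Nkg7, Klrb1c, Ncr1 and Ifng had 0 to 3 counts there and 0 to 6 in control libraries. Il7r had 48, 51 and 8 counts against 1 to 5 in control. Havcr2 had 10, 6 and 6 counts against 1 to 3, and Foxp3 6, 8 and 5 against 2 to 4. Pdcd1, the receptor of PD-L1, had 2, 3 and 0 counts and none in control.

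The B and plasma cell genes below the filter were highest in anti-PD-L1 replicate 2, except Mzb1, which had 6, 0 and 15 counts against 0 to 7 in control. Replicate 2 held 197 counts of Jchain, which joins IgA and IgM, 160 of Ighg2b, 41 of Igha and 39 of Cd79b, whereas replicates 1 and 3 held 0 to 7 of these and control libraries 0 to 10. Igkc, the kappa light chain, was at 0.524, 29.9 and 0.528 CPM against 0.134 to 1.84, and its call (4.08 ± 1.21, adjusted p = 0.017) rested on that library: without it the value was -0.21. Ighm, the IgM heavy chain, ran in the other direction, at 2.0, 11.0 and 16.1 CPM against 40.3 to 54.1 in control and 1.70 to 21.7 in IgG (-2.30 ± 0.80, adjusted p = 0.035). No anti-PD-L1 library reached the lowest control, but its call was lost without anti-PD-L1 replicate 1 or 2 (adjusted p = 0.11 and 0.092), or without control replicate 1, 2 or 4. Transcripts of fat cells were also uneven: Adipoq measured 3.0, 30.7 and 18.9 CPM against 0.811 to 4.32, and Cidec 1.38, 38.3 and 9.98 against 0.267 to 3.07. All 3 called adipocyte genes of 8 tested were lost without replicate 2. Haemoglobin genes were not called, with Hbb-bs at 20.4, 367 and 170 CPM against 107 to 206. By the summed level of each list, replicate 2 was the highest anti-PD-L1 library for T and NK cells (10.9 CPM against 6.20 and 5.06, control 4.77 to 7.01), B and plasma cells (62.8 against 3.43 and 17.9, control 41.4 to 57.1), adipocytes (358 against 101 and 197, control 147 to 216) and red blood cells (1108 against 83.5 and 498, control 370 to 664). The part of blood or adjoining tissue in the results of that library was not tested. Of 7 tested epithelial and tumour candidate genes 0 were called, and the 29 counts of the keratin gene Krt7 in replicate 3 stood against 0 to 5 in the other 7 libraries.

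Acute phase and interleukin-6 signalling genes were called higher in 15 of 21 tested and lower in 0 (median 1.22). The receptor gene Il6ra was at 72.9, 169 and 49.3 CPM against 5.90 to 19.4 (3.22 ± 0.44, adjusted p = 0.00012, and 2.55 without anti-PD-L1 replicate 2). The iron-scavenging protein Lcn2 measured 37.5, 18.9 and 10.1 against 0.825 to 1.14 in 4 controls and 4.37 in control replicate 3, and the protease inhibitor Serpina3n 46.0, 59.5 and 11.0 against 0.892 to 1.95 in 4 controls and 12.4 in control replicate 3. For Serpina3n that control library lay above anti-PD-L1 replicate 3. Without control replicate 3 the log2 fold changes of Lcn2 and Serpina3n were 4.51 and 4.75 instead of 3.76 and 3.43. Socs3, the feedback inhibitor of interleukin-6 signalling, was not called (1.24 ± 0.54, adjusted p = 0.085). Stat3 was at 69.3, 81.9 and 47.5 CPM, with control replicate 3 at 69.7, and its call (0.77 ± 0.27) was lost in the absence of any of several libraries.

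Chemokine and complement genes were called higher in 11 of 24 tested and lower in 2. Cxcl13, a chemokine that attracts B cells, was at 49.5, 22.9 and 9.98 CPM against 0.162 to 0.446 in 4 controls and 2.07 in control replicate 3 (5.46 ± 0.67, adjusted p = 6.2e-05; 4.72 without anti-PD-L1 replicate 1 and 6.61 without control replicate 3). Complement C4b measured 25.7, 41.1 and 40.5 against 2.7 to 7.71 and C3 107, 80.1 and 155 against 35.0 to 47.9, both with groups apart. C3 was higher than in IgG too, by 1.89 (adjusted p = 0.0048), as were 12 of the 24 genes. Ccl6 was at 135, 41.1 and 60.6 CPM against 12 to 38.5 (2.01 ± 0.48, and 1.38 without anti-PD-L1 replicate 1). Ccl8, a monocyte chemokine, measured 0.477, 3.34 and 0.880 CPM against 0.0589 to 0.280 in control and 0 to 0.241 in IgG, and its call against control was lost without anti-PD-L1 replicate 2 (2.13, adjusted p = 0.056). The 2 lower genes were Cxcl12 (-0.82), whose call was lost without anti-PD-L1 replicate 1 or control replicate 5, and Cxcl9, a chemokine induced by interferon gamma, at 0.143, 0.0857 and 0.572 CPM against 0.805 to 1.78 (-2.22 ± 0.54, adjusted p = 0.0056, and -3.41 without anti-PD-L1 replicate 3). Cxcl10, its close relative, was not called (0.97 ± 0.73).

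While myeloid genes were higher, interferon response genes were lower. Of 33 tested, 19 were called lower and 0 higher, with a median log2 fold change of -1.06, and 16 to 20 were called lower when any 1 library was left out. Tgtp2, an interferon-induced GTPase with a near copy in Tgtp1, measured 1.38, 0.643 and 1.67 CPM against 3.70, 7.55, 6.90, 4.33 and 16.0 (-2.65 ± 0.51, adjusted p = 0.0012). The guanylate-binding protein gene Gbp4 was at 1.14, 1.24 and 2.02 against 2.75 to 15.2, and Gbp7 at 6.67, 3.94 and 5.19 against 11.6 to 17.9 (-1.48 ± 0.19, adjusted p = 9.6e-05). Ifit3, which binds viral RNA complexes, measured 1.10, 1.97 and 1.28 against 3.05 to 5.93, and the ubiquitin-like modifier Isg15 0.572, 0.429 and 0.440 against 1.29 to 1.56. None of these 5 genes had overlapping groups. Irf1, a transcription factor of the interferon gamma response, was at 3.72, 3.99 and 2.81 against 6.00 to 10.3.

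Cd274, the target of the antibody, is on this list. It measured 1.43, 0.943 and 0.572 CPM against 1.51, 3.48, 2.47, 2.06 and 6.6 in control. The highest anti-PD-L1 library was just below the lowest control, and the log2 fold change was -1.72 ± 0.49 (adjusted p = 0.013). The call was lost without anti-PD-L1 replicate 2 or 3 (adjusted p = 0.052 and 0.053). In IgG against the same controls the difference was -0.95 (adjusted p = 0.067), and anti-PD-L1 against IgG gave -0.78 (adjusted p = 0.33). Across the interferon list, 26 of 33 genes were called lower in IgG and 1 of 33 was called higher in anti-PD-L1 against IgG.

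Promoters of 3 interferon genes are shown because their shared response element lies close to the start in each. They are from RefSeq (GRCm38.p6), the 250 bases before the start, 5′ to 3′ on the gene's strand, at chr11:49064213-49064462 (minus strand) for Tgtp2, chr19:34583279-34583528 (plus strand) for Ifit3 and chr4:156200819-156201068 (minus strand) for Isg15. Capitals mark matches on either strand to the interferon stimulated response element (TTTC, any 2 bases, TTTC), an element of promoters of interferon-induced genes.
Tgtp2: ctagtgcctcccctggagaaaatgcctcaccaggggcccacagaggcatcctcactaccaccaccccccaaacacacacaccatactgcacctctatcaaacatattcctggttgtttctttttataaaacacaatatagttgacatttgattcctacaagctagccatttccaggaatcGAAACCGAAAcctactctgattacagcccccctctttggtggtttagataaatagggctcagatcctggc
Ifit3: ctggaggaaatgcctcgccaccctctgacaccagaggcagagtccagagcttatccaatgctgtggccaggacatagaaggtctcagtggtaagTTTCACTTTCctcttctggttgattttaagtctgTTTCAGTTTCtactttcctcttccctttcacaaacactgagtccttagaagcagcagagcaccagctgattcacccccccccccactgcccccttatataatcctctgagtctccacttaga
Isg15: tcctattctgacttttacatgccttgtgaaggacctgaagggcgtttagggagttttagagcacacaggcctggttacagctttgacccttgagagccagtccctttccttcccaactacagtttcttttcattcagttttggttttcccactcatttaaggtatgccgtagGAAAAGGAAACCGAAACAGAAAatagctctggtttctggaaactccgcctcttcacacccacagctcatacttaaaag

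Tgtp2 holds 1 match, Ifit3 holds 2, and Isg15 holds 3 that overlap one another between positions -78 and -57. Of the 37 interferon genes, 29 had a promoter in the table, with 34 windows, and 50% of those windows held the element against 2.98% of all 32851. All 3 genes shown were called lower in the anti-PD-L1 libraries, and the list was drawn up from genes known to respond to interferon.

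Few antigen presentation genes were called against control. Of 18 MHC class I presentation genes, 4 were called lower (13.9% of all genes) and 0 higher, Psmb9, Psmb10, Psme1 and H2-T22 (-0.42). The 4 became 1 without anti-PD-L1 replicate 2 and 2 without control replicate 4 or 5. H2-K1 (0.07 ± 0.16) and B2m (-0.24 ± 0.12) were not called. In class II, 1 of 7 tested genes was called higher against control (20.8% of all genes), H2-DMa (1.18 ± 0.35), whose call was lost without replicate 1 (adjusted p = 0.057). The invariant chain Cd74 measured 46.3, 90.6 and 99.4 CPM against 44.8 to 59.3, with replicate 1 inside the control range. In a fit of the anti-PD-L1 and control groups alone, 5 of the 7 were called higher. Against IgG, all 7 class II genes were called higher, with Cd74 at 1.82 (adjusted p = 0.016) and H2-Ab1 at 1.76 (adjusted p = 0.02).

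Connective tissue genes were lower. Of 29 collagen and matrix genes, 15 were called lower and 3 higher, with a median of -0.79. The fibrillar collagen Col3a1 measured 12.4, 7.54 and 26.8 CPM against 154 to 247, and Col1a1 5.34, 3.94 and 17.8 against 69.8 to 140. For both, replicate 3 was nearest to control and still far below it. Their log2 fold changes were -3.66 ± 0.51 and -3.48 ± 0.54 (adjusted p = 0.00015 and 0.00029), or -4.31 and -4.44 without replicate 3. Serpinh1, the collagen chaperone, was at 22.2, 16.6 and 27.7 against 66.8 to 121. The 3 higher genes were the proteoglycan Dcn (1053, 957 and 1132 against 478 to 753), the membrane protease Mmp14 (16.8, 24.2 and 19.7 against 6.28 to 12.1) and the crosslinking enzyme Lox, whose control replicate 3 at 52.7 CPM overlapped the anti-PD-L1 values of 55.0, 78.2 and 34.8. The call of Lox was lost without anti-PD-L1 replicate 2 (adjusted p = 0.1), and its log2 fold change of 1.46 became 2.18 without control replicate 3. Fn1 was not called (0.56 ± 0.33). Collagen and matrix genes were also low in IgG, where 21 of the 29 were called lower, and 11 were called higher in anti-PD-L1 against IgG, Col1a2 among them by 1.53 (adjusted p = 0.039).

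Markers of the mesenchymal cells that make this matrix were mostly not called. Of 15 tested fibro-adipogenic progenitor genes, 3 were lower, Thy1, Pcolce and Mfap5, and 1 higher, Gsn. The call of Mfap5 was lost without anti-PD-L1 replicate 2 (adjusted p = 0.069), and that of Gsn without anti-PD-L1 replicate 3 or control replicate 1 or 2, with upper-quartile scaling and in a fit of the 2 groups alone. Thy1 measured 1.81, 1.41 and 3.34 CPM against 7.49 to 11.2 (-2.19 ± 0.36). The receptor Pdgfra, which defines these cells, was at 33.1, 29.9 and 43.6 CPM against 22.46 to 35.2 (0.27 ± 0.17, adjusted p = 0.23), while in anti-PD-L1 against IgG it was higher by 0.97 (adjusted p = 0.0088). The summed level of the list was 1184, 1278 and 2245 CPM against 1023 to 1512, and without replicate 3, the highest, 8 of the genes were called lower. Tendon genes were lower in 5 of 10 cases and higher in 1, Angptl7 (1.45 ± 0.52). The call of Angptl7 was lost without anti-PD-L1 replicate 2 or control replicate 1, 4 or 5, with upper-quartile scaling, in DESeq2 and in a fit of the 2 groups alone. Tnmd, a tendon cell membrane protein, was at 0.381, 0.771 and 1.36 CPM against 3.35 to 13.3 (-3.28 ± 0.53), and Kera, a matrix proteoglycan, at 0, 0.686 and 1.01 against 3.79 to 9.60 (-3.41 ± 0.60, and -4.09 without replicate 3).

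In the endothelial list, 7 of 17 genes were called lower and 2 higher, or 3 lower without anti-PD-L1 replicate 1. The peptide hormone Apln and its receptor Aplnr, which guide vessel growth, fell most: Apln was at 0.0953, 0.0857 and 0.132 CPM against 1.65 to 4.24, with 7 counts in all in the 3 libraries against 259 in the 5 controls, and Aplnr at 0.238, 0.343 and 1.8 against 5.48 to 13.7 (-3.49 ± 0.64, and -4.92 without replicate 3). Vegfa, the main vessel growth factor, was at 34.0, 61.5 and 63.8 against 86.4 to 122, and its call was lost without replicate 1 (adjusted p = 0.091). Pecam1, carried by all endothelial cells, was not called (40.8, 80.3 and 46.9 against 48.2 to 76.8). Rgcc (131, 154 and 96.0 against 44.7 to 58.4) and Vwf (20.9, 43.7 and 40.2 against 16.8 to 22.6) were the 2 higher genes, and the call of Vwf was lost without anti-PD-L1 replicate 2 or 3 or control replicate 1, 4 or 5. Of 11 tested Schwann cell genes, 4 were lower and 1 higher, the nerve growth factor receptor Ngfr (1.29, 2.23 and 3.96 against 0.288 to 0.589), which is raised in Schwann cells after nerve injury. The 4 lower became 2 without anti-PD-L1 replicate 3, 7 with upper-quartile scaling and 8 without a filter on low counts.

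Immediate early genes, which respond within minutes to stimulation and also to handling of tissue, were called higher in 11 of 21 tested and lower in 0, or 2 lower without anti-PD-L1 replicate 3. Btg2, an antiproliferative gene, was at 156, 335 and 174 CPM against 14.7 to 21.6 (3.57 ± 0.35, adjusted p = 2.1e-05), and Junb at 61.5, 51.6 and 92.8 against 4.76 to 16.0. The classical member Fos was at 23.1, 11.7 and 18.6 against 2.60 to 14.1, overlapping control, with a call that was lost when any library but control replicate 3 was left out, and Egr1 (0.71) and Nr4a1 (0.20) were not called. Of 19 clock genes, 7 were called higher and 3 lower, which became 4 and 1 without anti-PD-L1 replicate 2, and the lower count was also 1 without replicate 1. The clock output gene Dbp measured 12.3, 4.37 and 10.7 CPM against 26.2 to 82.7 (-2.77 ± 0.41, adjusted p = 0.00021), and the repressor Cry2 114, 257 and 114 against 23.4 to 47.8. Dbp and Per1 (123, 228 and 109 against 30.8 to 60.4) both had groups apart, and the labels give no time of day for the collection. Among 11 tested glucocorticoid targets, Errfi1, Lpin1 and Glul were called higher, while Tsc22d3 (GILZ, 0.37 ± 0.22), Sgk1 (0.17) and the receptor gene Nr3c1 (-0.12 ± 0.21) were not. Fkbp5 and Klf15, 2 further genes known to respond to glucocorticoids, are not counted in that list. Both were called higher and kept the call under every alternative. Fkbp5 had 5270, 8577 and 3811 counts against 735 to 2310 in control, and Klf15 3613, 5276 and 1755 against 404 to 1307. In the heat shock list, 4 of 24 genes were higher, with Hspb1 at 380, 488 and 220 CPM against 113 to 145, and Dnaja1 was lower, a call that was lost without anti-PD-L1 replicate 2 or control replicate 1, 2 or 3.

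Several of the largest changes fell outside any of these lists. Nrep, a neuronal regeneration-related gene, had the largest fall among the genes named, from 139 to 189 CPM in control to 2.76, 2.61 and 9.10 (-5.07 ± 0.55, adjusted p = 3.1e-05, and -5.91 without anti-PD-L1 replicate 3). Nmrk2, a muscle kinase that makes NAD from nicotinamide riboside, was at 18.6, 1.67 and 7.08 CPM against 66.6 to 155 (-3.68 ± 0.67, and -4.74 without replicate 1). Foxo6os (0.477, 0.343 and 0.396 against 6.92 to 11.0) and Irx3os are antisense genes, and whether counting used the strand is not stated, so their values cannot be separated from those of their sense partners. On the rising side, Gnmt, which consumes S-adenosylmethionine, was at 14.2, 7.84 and 3.39 CPM against 0.236 to 0.575 (4.35 ± 0.47, adjusted p = 3e-05, and 3.76 without replicate 1). Arg1, the arginase of alternatively activated macrophages, measured 0.763, 0.214 and 4.66 CPM, with 127 counts against 2 in control (88.2 times the level, 95% counting interval 23.9 to 736), and 4.11 in place of 6.07 on the log2 scale without replicate 3. The myeloid receptor Cd300lf was at 1.43, 1.29 and 0.880 CPM, with 80 counts against 1 (111 times the level, interval 19.4 to 4442). Both intervals cover counting error only. They leave out the spread between libraries, which for Arg1 was 16, 5 and 106 counts. The eosinophil and macrophage ribonuclease Ear2 measured 22.9, 12.4 and 10.5 against 0.707 to 1.52, and the vitamin D receptor Vdr 1.67, 0.557 and 1.14 against 0 to 0.118. The rule that named these genes required the 3 libraries to lie outside the control range.

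Some genes differed in the same direction from both control and IgG. Against IgG, 791 genes (5.5%) were called, 569 higher and 222 lower, and IgG against the same controls gave 8410 (58.5%). Among genes that were also called in the same direction against control, Ccl8, Cytip and Cd200r1 were on the higher side besides the neutrophil genes above. Cd200r1, an inhibitory receptor of myeloid cells, measured 3.0, 0.686 and 1.14 CPM against 0 to 0.403 in control and 0.124 to 0.301 in IgG, and its call against control (2.57 ± 0.63) was lost without anti-PD-L1 replicate 1 (adjusted p = 0.06). Cytip, which regulates leukocyte adhesion, measured 4.15, 4.5 and 5.72 CPM against 0.357 to 0.863 in control and 0.378 to 1.55 in IgG. The lowest anti-PD-L1 library was above every library of both groups, where the naming rule required the separation from control. On the lower side the differences were smaller: Traf3, an adaptor of immune signalling, was at 10.6, 8.83 and 13.1 CPM against 18.5 to 25.6 in control and 14.4 to 28.7 in IgG, and Jag2, a Notch ligand, at 12.3, 9.90 and 13.7 against 16.9 to 18.7 and 14.6 to 19.9. Their log2 fold changes against control were -0.99 ± 0.23 and -0.55 ± 0.13.

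**Figure D4:**
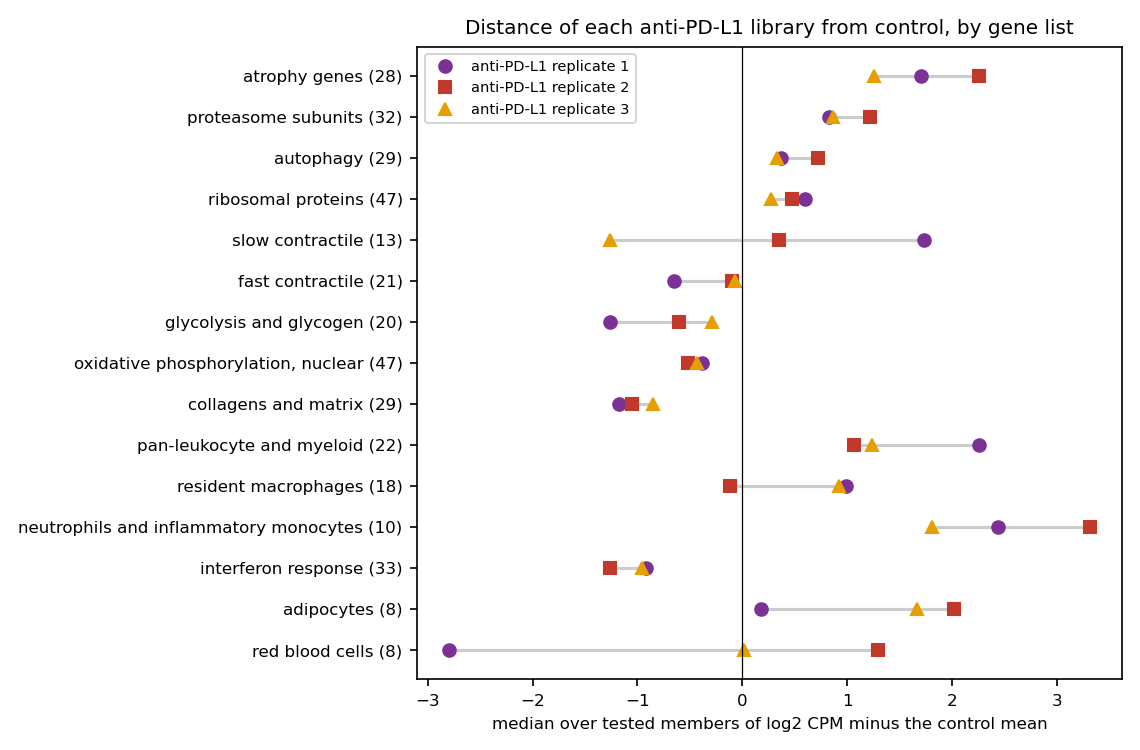
Median over tested list members of log2 CPM minus the control mean in each of the 3 anti-PD-L1 libraries, for 15 gene lists (number of tested genes in brackets). The libraries lie close together for proteasome, oxidative phosphorylation and interferon genes (-0.91, -1.27 and -0.96 for the last) and far apart for slow contractile genes (1.74, 0.35 and -1.26) and red blood cell genes (-2.79, 1.3 and 0.01).

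The 3 anti-PD-L1 libraries differed in how far they lay from control and in which genes. Replicate 2 was the farthest of the 3 from the control mean for 67.3% of the 2989 genes called higher and for 57.5% of the 1999 called lower. Replicate 3 was the nearest for 50.7% and 56.7%. The median distance was 0.72, 1.02 and 0.65 on the log2 scale over genes called higher, and 0.92, 1.13 and 0.72 over genes called lower, in replicates 1, 2 and 3. By list, replicate 1 stood out in myeloid genes (2.26 against 1.06 and 1.24) and in the lower glycolytic genes, replicate 2 in atrophy genes (2.26 against 1.71 and 1.26) and neutrophil genes (3.32 against 2.44 and 1.81), and replicate 3 in the lower slow contractile genes.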

How the data were processed

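RNA sequencing libraries of tibialis anterior were prepared with a directional kit, per the labels' protocols; Trim Galore, STAR 2.7.9a and RSEM 1.3.3 are named, per the submitters' processing notes. The build, the annotation and whether strand was used are not given in the sources used here. The authors deposited RSEM expected counts and TPM for 55416 genes per library. Expected counts were rounded to whole numbers, and TPM was used as deposited for muscle markers and myosin shares. After filterByExpr and TMM normalization, edgeR 4.0.16, run in R 4.3.3, modelled the 15 libraries jointly and gave quasi-likelihood tests (11 residual degrees of freedom), with Benjamini-Hochberg adjustment over 14372 genes and a threshold of 0.05. Standard errors were derived from each fold change and its F statistic. A count of 0 allows up to 0.129 to 0.177 CPM in these 8 libraries (3 counts, counting error only). Members and lists were chosen with earlier results of these data known. The naming rule took Ctsl, Trim63, Fbxo32, Cd8a, Cd274 and Pdcd1, the 12 higher and 12 lower genes of largest change with ranges apart, 3 members per list, and the 6 higher and 6 lower genes also called against IgG (147 genes); 60 further genes, single list members and counts below the filter were named after their values were seen. Alternatives were other scalings, filters and fits, DESeq2 1.42.0, and leaving out each library. Near copies and antisense genes are uncertain. Promoters are from RefSeq (GRCm38.p6), matched by symbol. Some genes are not reported here.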

Additional observations from a re-analysis of the deposited data

Results flagged for a closer look

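Values of the 5 control libraries were checked for a single library that lay apart from the other 4 (gap over range above 0.71, Dixon's criterion). Of 209 sets of control values checked, 25 (12%) had such a library, and in 20 of the 25 it was control replicate 3 as the highest. No chance rate can be set beside this share, since the genes were chosen with results known and may vary together. Its values were 1258 CPM for Trim63, 62.9 for Cdkn1a, 262.6 for Mt1 and 230 for Mt2 among atrophy genes, and 301 for Ppargc1a. Inflammatory genes were high in it too, with Lcn2 at 4.37, Serpina3n at 12.4, Serpina3m at 0.460, Cxcl13 at 2.07, Ccl6 at 38.5, S100a8 at 1.67, S100a9 at 1.61, Itgam at 5.46, Csf2rb at 4.08 and Igkc at 1.84 CPM. Cd8a was flagged at 0.230 CPM, which is 4 counts and near the floor. Junb at 16.0, Maff at 17.1, Rgcc at 58.4 and Lox at 52.7 completed the list. Without this library 4554 genes were called in place of 4988, of which 4352 were shared. Control replicate 1 was highest for Cycs (738) and Cd300lf (0.0561, a single count). Control replicate 2 was highest for Igfbp5 (494) and Nin (27.1) and lowest for Thy1 (7.49).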

How the results depend on the processing

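Among genes called in the reported fit, Igkc (4.08) was the only named gene whose direction turned (-0.21 without anti-PD-L1 replicate 2). Counts stayed within 1.5 times of 4988 under every scaling, filter and tool tried (4629 to 5279). They left that range when a change beyond 1.5-fold was required (edgeR's glmTreat: 1232 called, 742 higher and 490 lower). With the replicate number as a block the total fell but stayed within it (3364 called, 2044 higher and 1320 lower). The labels do not say whether the numbers pair libraries. The correlations of same-numbered anti-PD-L1 and control libraries were 0.049, 0.18 and -0.13. Those of differently numbered libraries ran from -0.18 to 0.16, and so few values cannot settle whether the numbers pair libraries. Leaving out 1 library gave 3013 to 4931 called (1879 to 2952 higher, 1134 to 1979 lower), the lowest without anti-PD-L1 replicate 2. Of 191 named genes called, 121 kept the call under all alternatives. Of named genes that were not called, signs reversed for Pdk4 (-0.44) without anti-PD-L1 replicate 2, Pecam1 (0.027) without replicate 1, and Folr2 (0.01, 0.08, 0.31 and 0.05 without control replicates 1 and 5 and anti-PD-L1 replicates 2 and 3); with 1 library left out Igkc, Pdk4, Pecam1 and Folr2 ranged from -0.21 to 5.03, -0.44 to 1.15, -0.51 to 0.027 and -0.90 to 0.31. List medians of fatty acid, lipid synthesis and heat shock genes were negative with upper-quartile scaling (-0.03, -0.10 and -0.06).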
